A study of Mus musculus with 42 samples.

Results

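The Atm-/- experiment consisted of 6 of the 42 arrays of the series: 3 Atm-/- pre-B cell lines, each measured 2 h after 1 Gy of gamma rays and 2 h after mock treatment, taken by their genotype, treatment and replicate labels. The irradiated array of a line was set against the untreated array with the same replicate number. The lines lacked Atm, the ataxia telangiectasia mutated kinase. For comparison the series holds 36 arrays of 6 other genotypes with 3 lines each: Scid (a mutation of Prkdc, which encodes DNA-PKcs), Mre11A/A (a hypomorph), 53bp1-/-, H2ax-/-, Mdc1-/- and WT, in which no gene is named as mutated. All 42 arrays, controls included, came from bone marrow cells of mice aged 3 to 5 weeks that carried the Em-Bcl2 transgene, transformed with the v-abl oncogene by the pMSCV retrovirus. The cells were irradiated from a caesium source at 0.72 Gy/min. Lines of this kind divide without added growth factors and carry a Bcl2 transgene that blocks much of mitochondrial apoptosis, which limits them as a model of a normal pre-B cell's response. The labels call the arrays biological replicates and do not say whether the 3 lines of a genotype came from different mice. P-values and standard errors therefore cover a spread between lines. This spread was pooled over all 21 lines of the series and is not that of the 3 Atm-/- lines alone.

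Atm is the kinase that is activated by DNA double-strand breaks. It phosphorylates p53, its inhibitor Mdm2 and the checkpoint kinase Chk2, and it passes a signal from the nucleus to the NF-kB pathway through the subunit NEMO. The related kinases Atr and DNA-PKcs also respond to broken or stalled DNA and can phosphorylate some of the same proteins, so that transcripts may still change after irradiation when Atm is missing. The Atm-/- arrays address which transcripts do so.

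Atm itself was measured by 2 probe sets, which were dim on the Atm-/- arrays. The brighter on the WT arrays averaged 177 ± 56.9 on the Atm-/- arrays, against 1518 ± 150 on the WT arrays (SD, n = 6 arrays each). The other averaged 184 ± 69.9 on the Atm-/- arrays, against 762 ± 41.3 on the WT arrays (SD, n = 6 each), and neither probe set overlapped between the genotypes. The lines also carried the markers of their label: 16 of 18 listed pre-B markers were tested, 14 of them had a mean above 500 on the Atm-/- arrays, and their summed signal was 115194 to 133274 on irradiated arrays, against 128227 to 149868 on untreated arrays. Markers of other cells were few: 4 of 11 T cell, 8 of 13 myeloid, 2 of 8 erythroid, 6 of 12 stromal and 4 of 5 plasma cell markers were tested, of which 1 T cell, 1 stromal and 3 plasma cell markers had a mean above 500. In RNA of whole cultures, fewer cells of a type and less RNA per cell cannot be told apart.

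Among the Atm-/- arrays 1 stood apart. The median signal of the irradiated array of Atm-/- line 2 was 116, that of irradiated WT line 4 was 103, and the other 40 arrays lay between 62.6 and 82.9. With genes ordered by mean signal and cut into 5 groups of 2472 or 2473, the dimmest group was raised in line 2, with a median difference of 0.71 (irradiated minus untreated, on the log2(signal + 16) scale used for every difference below), against -0.13 in line 1 and 0.1 in line 3. In the brightest group the medians were -0.11 in line 2, -0.04 in line 1 and 0.07 in line 3. WT line 4 had 0.69 in the dimmest group and -0.11 in the brightest. Counts are therefore given with and without line 2, and for named genes the text says where the call was lost without it. What raised the low signals was not tested.

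**Figure D1:**
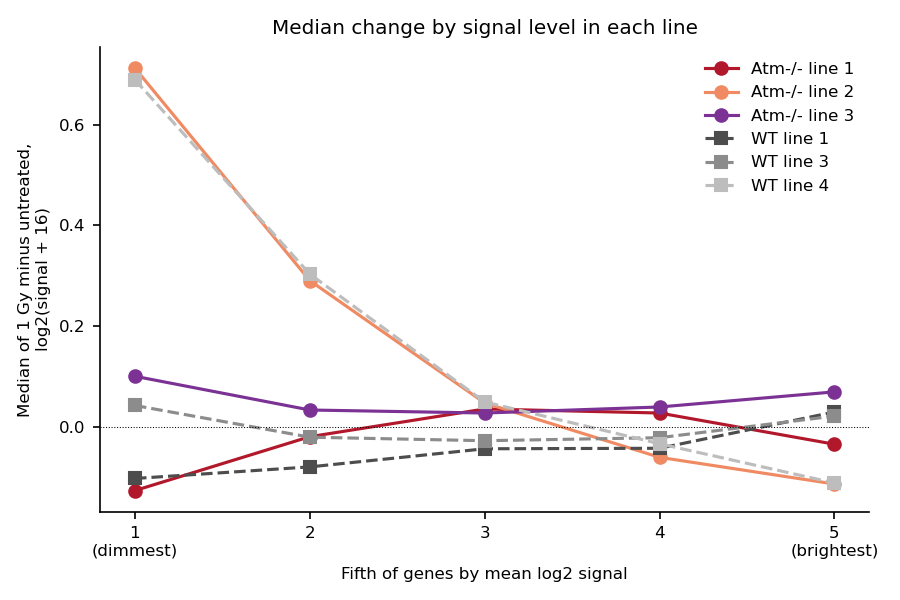
The x axis gives 5 groups of tested genes in order of mean log2 signal, the y axis the median difference of each Atm-/- line (circles) and WT line (squares) between 1 Gy and untreated on the log2(signal + 16) scale. Atm-/- line 2 and WT line 4 reach 0.71 and 0.69 in the dimmest group, and the other lines lie between -0.13 and 0.1 there.

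Irradiation left few changes that were shared by the 3 Atm-/- lines. Of 12363 genes tested, 164 (1.33%) passed a Benjamini-Hochberg adjusted p of 0.05 in limma's fit, called here changed: 64 rose (0.518%) and 100 fell (0.809%). The changes were mostly small, with a median of 0.49 for the rises (12 above 1) and -0.39 for the falls (5 beyond -1), while the median of all genes was 0.03. All 164 had the same sign in 3 of 3 lines, while of all genes 14.9% were above 0 and 11.1% below 0 in all 3. For 82 of the 164 the 3 irradiated arrays did not overlap with the 3 untreated ones, 31 higher and 51 lower. Over all genes, 3.58% did not overlap with the irradiated arrays higher and 2.16% with them lower. The calls were made on these same arrays, so neither property is separate evidence. The falls leaned on 1 line, since line 3 had the largest difference for 65 of the 100, against 20 for line 1 and 15 for line 2. The count was 260 without line 2 (2.1%), 110 of them higher (0.89%) and 150 lower (1.21%), 309 without line 1 and 86 without line 3. Of the 164, 105 were called in the same direction without line 2 (0.849%), 35 higher (0.283%) and 70 lower (0.566%). Without line 1, 96 of the 164 were called in the same direction, and without line 3, 42. The 86 calls without line 3 were 56 rises and 30 falls. Of 63 changed genes named by rule, 20 lost the call without line 1, 25 without line 2 and 47 without line 3. The text marks such losses gene by gene only for line 2.

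These calls rest on a spread between lines that was pooled over all 42 arrays and on comparing each line with itself. The 6 Atm-/- arrays fitted on their own in limma gave 0 calls, with 737 genes at an unadjusted p under 0.05 (1870 genes, 15.1%, in the fit to all arrays). With the pairing dropped, 1 gene was called, Ranbp1 (0.00809%), with 734 genes (5.94%) at an unadjusted p under 0.05. With arrays weighted by their own spread, 1 gene was called, Casd1. The Atm-/- lines also varied the most: the SD of the 3 line differences had a median over genes of 0.293, against 0.239 in WT lines and 0.171 to 0.217 in the other 5 genotypes. Across all genes, the differences of any 2 Atm-/- lines had a Pearson correlation of -0.08 to 0.04 (3 pairs of lines with separate arrays), against 0.258 to 0.271 within Mdc1-/- and -0.05 to 0.156 within WT.

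Second probe sets of the same genes gave a separate reading on the same arrays. Of the 164 changed genes, 93 had at least 1 other probe set that passed the signal filter, 166 in all, and 90 of these (54.2%) had the sign of the called probe set. For genes called in the other genotypes the share was 82.4% in WT, 88.4% in Scid, 80% in Mre11A/A (4 of 5), 94.6% in 53bp1-/-, 86.2% in H2ax-/- and 86.7% in Mdc1-/- lines. Among probe sets with a mean of at least 200 the share was 56.3% in Atm-/- (71 of 126), against 91.5% in WT. For named genes the values of other probe sets stand beside the called one.

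**Figure D2:**
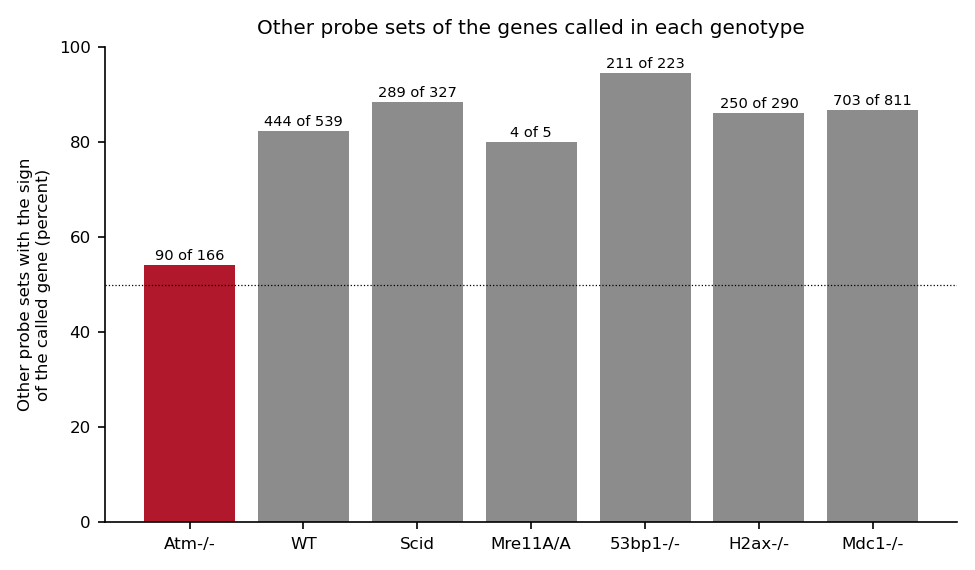
Bars give, for the genes called in each genotype, the percent of their other probe sets whose difference between 1 Gy and untreated has the sign of the called probe set, with the counts above. The dotted line marks 50 percent. The Atm-/- bar stands at 54.2% and the others between 80% and 94.6%.

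Among the genes that fell, Ranbp1, which encodes a cofactor of the GTPase Ran in nuclear transport, was called under the most settings among the named genes. Its signal was 12065, 9336 and 9921 on the irradiated arrays of Atm-/- lines 1 to 3, against 15468, 13915 and 17149 on the untreated ones. Every irradiated array was below every untreated array, and the difference was -0.57 ± 0.08 (SE, adjusted p = 0.0020). It was -0.06 in WT lines and -0.04 over the other 6 genotypes, and the Atm-/- difference departed from both (adjusted p = 0.018 against WT and 0.00082 against the others). Ranbp1 was called in 17 of 20 other settings, with a range of -0.68 to -0.47, and this gene has 1 probe set here.

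Selenok, which encodes a selenoprotein of the endoplasmic reticulum membrane, had 2535, 2743 and 2138 on irradiated arrays, against 3783, 3940 and 3841 on untreated arrays. The groups did not overlap, and the 3 untreated arrays lay close together. The difference was -0.65 ± 0.09 (adjusted p = 0.0024), against 0.04 in WT lines, and a second probe set gave -0.21, with 0.2 in line 2. Eif4e, the cap-binding factor of translation initiation, had 4987, 4931 and 4439 on irradiated arrays, against 6323, 6115 and 7247 on untreated ones. Its groups did not overlap either, and the difference was -0.45 ± 0.07 (adjusted p = 0.0030), but 3 other probe sets of Eif4e gave 0.02, 0.04 and 0.16.

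Uqcr10, a small subunit of respiratory complex III, had 4228, 3683 and 3273 on irradiated arrays, against 6314, 4275 and 4830 on untreated arrays. The groups did not overlap, although the lowest untreated array, that of line 2, was close to the highest irradiated one. The difference was -0.45 ± 0.08 (adjusted p = 0.0059), and the 2 other probe sets of Uqcr10 gave -0.24 and -0.41. Cox8a, a subunit of cytochrome c oxidase, fell by 0.62 ± 0.11 (adjusted p = 0.0061), with -1.23 in line 3, -0.31 in line 1 and -0.32 in line 2. One of its other probe sets gave -0.50 and a dim one 0.29. Fis1, a factor of mitochondrial fission, fell by 0.34 (-0.28 on a second probe set), Eral1, a GTPase that assembles the small subunit of the mitochondrial ribosome, by 0.50 (-0.38 to 0.04 on 4 others), and Micu2, a regulator of mitochondrial calcium uptake, by 0.32.

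The list of respiratory chain genes as a whole had few calls. Of its 31 members tested, which do not include Uqcr10 or Cox8a, 0 rose and 1 fell in limma's fit (0.809% of all genes fell), Ndufs3 of complex I. Without line 2, 3 fell (1.21% of all genes). At an unadjusted p under 0.05, 0 were above and 8 below 0, against 1015 above and 855 below among all 12363 genes. Ndufs3 had 2763, 2791 and 2826 on irradiated arrays, against 3329, 2968 and 3780 on untreated ones, which do not overlap, and differed by -0.26 ± 0.07 (adjusted p = 0.049). The median of the list was -0.11, with -0.21, -0.14 and 0.07 in lines 1 to 3, against 0.06 in WT lines and 0.01 over the other genotypes. Cytosolic ribosomal protein genes had a similar median of -0.12, with -0.27, -0.13 and 0.03 in lines 1 to 3, and 12 of 28 lay below 0 in all 3 lines, against 11.1% of all genes. Their single call was a rise of Rps25 (0.518% of all genes rose), of 0.32 ± 0.08 (adjusted p = 0.043), which was lost without line 2 (adjusted p = 0.19). Of these genes 0 fell, and at an unadjusted p under 0.05, 2 were above and 6 below 0. Without line 2, 0 were called in either direction.

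Other falls that were also called without line 2 lay in genes of unlike function. Brms1, a component of histone deacetylase complexes, had 380, 217 and 302 on irradiated arrays, against 600, 414 and 434 on untreated arrays, with no overlap and a difference of -0.67 ± 0.12 (adjusted p = 0.0059), while a second probe set gave 0.04. Gabarapl2, an autophagosome protein, fell by 0.44, but its dimmer second probe set gave 0.42. Psmb2, a proteasome subunit, fell by 0.72 and Stambpl1, a deubiquitinase, by 0.67, with -0.09 on a second probe set of Stambpl1. Psmb2 and Stambpl1 moved mostly in line 3, with -1.58 and -1.38, against -0.21 and -0.09 in line 2. Rab21, a GTPase of endosomes, fell by 0.33 ± 0.07 (adjusted p = 0.027) and rose by 0.21 over the other 6 genotypes (adjusted p = 1.1e-05), with -0.10 on a second probe set of Rab21.

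Most of the largest falls came from dim probe sets or from line 3. Pfdn2, a subunit of the chaperone prefoldin, differed by -1.04, with -2.32 in line 3 and -0.39 and -0.41 in the other lines. Alyref, an mRNA export adaptor, differed by -0.94 with -2.38 in line 3, and a second probe set gave 0.19. Arf5, a GTPase of the Golgi, differed by -1.21 with -2.34 in line 3, and the splicing factor Srsf9 by -0.66 with -1.54 in line 3. In line 3 the 3′ to 5′ signal ratio of the β-actin control probe sets was higher on the irradiated array, by 0.268 on the log2 scale, against 0.161 in line 2 and -0.167 in line 1. Its part in these falls was not tested. Fahd1 and 5430405H02Rik, with differences of -1.10 and -1.22, had at most 171 and 119 on any Atm-/- array, and an adjusted p of 0.11 and 0.057 without line 2.

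Among the rises, Cenpc1, which encodes an inner kinetochore protein, moved against WT lines and against the mean of the other 6 genotypes. It had 2189, 2977 and 2101 on irradiated arrays, against 1400, 2155 and 1568 on untreated ones. Each line was higher after irradiation, while the groups overlapped because line 2 was bright on both of its arrays. The difference was 0.51 ± 0.08 (adjusted p = 0.0047), whereas Cenpc1 fell by 0.33 in WT lines (adjusted p = 0.021) and by 0.24 over the other 6 genotypes (adjusted p = 1.0e-05). Scid, H2ax-/- and Mdc1-/- lines gave -0.34, -0.26 and -0.39, but 53bp1-/- and Mre11A/A lines only -0.08 and -0.02. The Atm-/- minus WT difference was 0.84 (adjusted p = 0.00076).

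B3galnt2, a glycosyltransferase that modifies dystroglycan, had 1620, 980 and 1585 on irradiated arrays, against 972, 752 and 891 on untreated arrays. The lowest irradiated value, that of line 2, was just above the highest untreated one. The difference was 0.64 ± 0.11 (adjusted p = 0.0055), and the other probe sets of B3galnt2 gave 0.18 and 0.10. Cbll1, an E3 ubiquitin ligase, had 2129, 2150 and 2103 on irradiated arrays, against 1536, 1665 and 1464 on untreated arrays. Neither group overlapped the other and both were tight, with a difference of 0.45 ± 0.08 (adjusted p = 0.0055), against 0.02 in WT lines, but the second probe set of Cbll1 gave -0.06.

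The other rises that were called with and without line 2 were smaller or less even. Wdr26, a subunit of the CTLH ubiquitin ligase, had 6131, 5882 and 6269 on irradiated arrays, against 5058, 5221 and 4298 on untreated ones, with no overlap and a difference of 0.33 ± 0.07 (adjusted p = 0.020), and its 5 other probe sets gave -0.03 to 0.43. Ranbp9, another subunit of this ligase, rose by 0.36, with 0.46, 0.03 and 0.58 in lines 1 to 3, and its second probe set gave -0.14. Prkaca, the catalytic subunit of protein kinase A, rose by 0.54, and a second probe set gave -0.02. Gltp, a glycolipid transfer protein, rose by 0.51. Jpt1 rose by 0.82 on the brightest probe set, with 0.01 in line 2, and its other probe sets gave -0.44 and -0.15. Casd1, a sialic acid acetyltransferase, rose by 0.99 ± 0.15 (adjusted p = 0.0030) with 34.1, 56.1 and 809 on irradiated arrays, against 1.13, 12.6 and 756 on untreated arrays, so its differences of 1.55 and 1.33 in lines 1 and 2 lay at dim signals and line 3, at a bright signal, gave 0.09. A second, dim probe set of Casd1 gave -0.22.

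Most of the largest rises lay in dim probe sets. Ubxn10, Majin, Fn3krp and Tspan9 differed by 1.97, 1.97, 1.95 and 1.62, their highest signal on any Atm-/- array was 200, 148, 183 and 122, and line 2 gave the largest of the 3 differences in each. Without line 2 their adjusted p was 0.21, 0.20, 0.23 and 0.20. Tlr9, the endosomal receptor for unmethylated DNA, had 118, 372 and 177 on irradiated arrays, against 78.1, 62.2 and 7.62 on untreated arrays. The groups did not overlap, and the difference of 1.95 ± 0.41 had an adjusted p of 0.021, and 0.071 without line 2. Tlr9 was the only member called among 24 tested genes of Toll-like receptor and innate sensing pathways (0.518% of all genes rose), with 0 lower. At an unadjusted p under 0.05, 4 of the 24 were above and 1 below 0, against 1015 above and 855 below among all 12363 genes. Without line 2, 1 member other than Tlr9 was called higher (0.89% of all genes) and 0 lower. Gm5600 was called without line 2 too (difference 1.32, adjusted p = 0.043 without it).

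**Figure D3:**
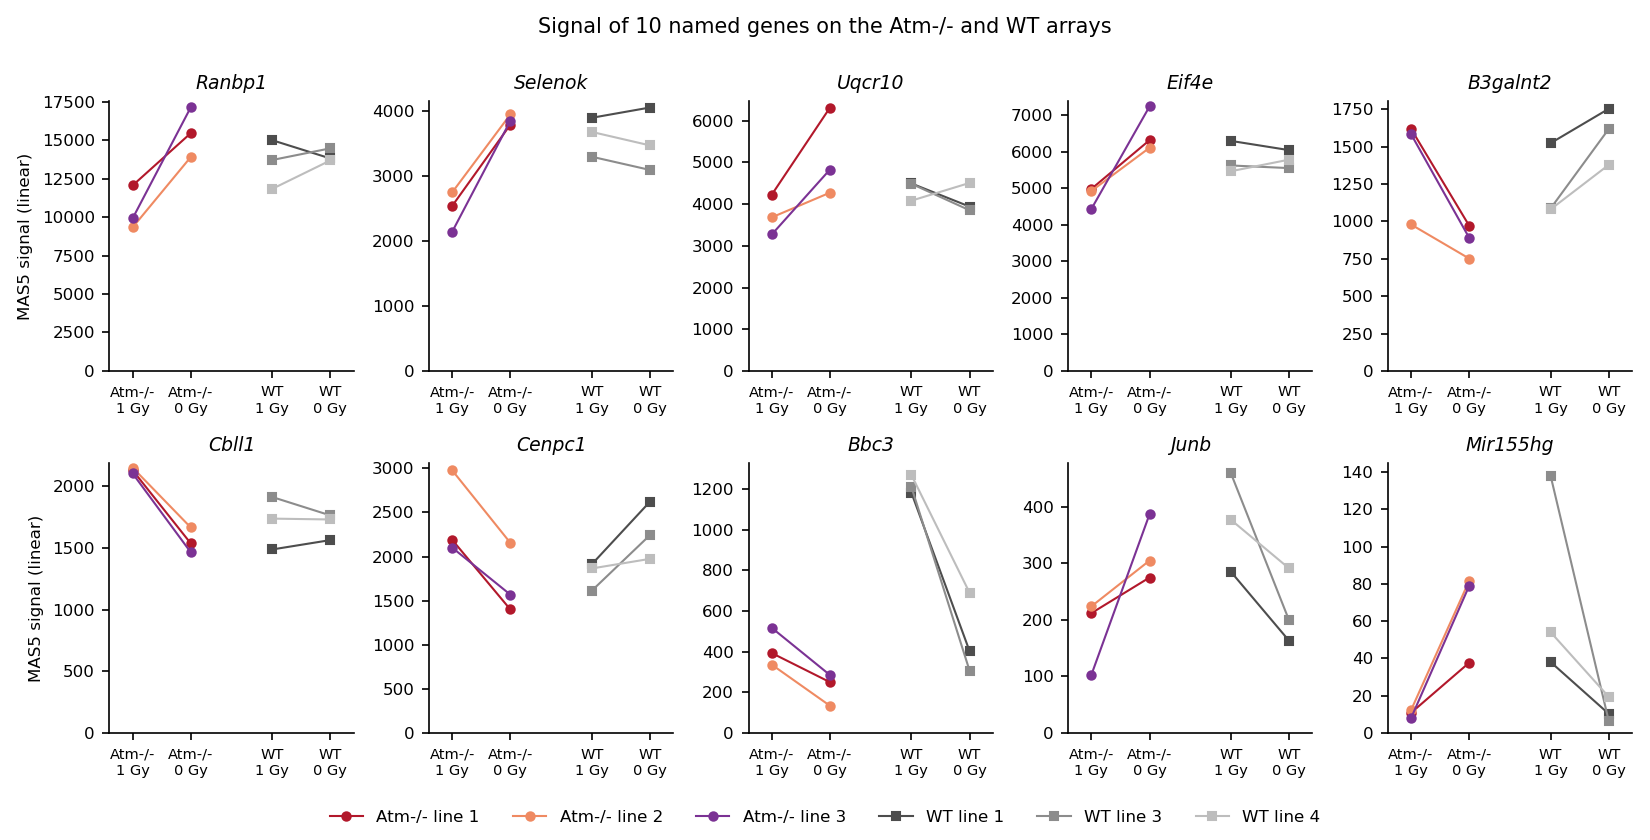
Each panel gives the linear MAS5 signal of 1 gene on the irradiated and untreated arrays of the 3 Atm-/- lines (circles) and of the 3 WT lines (squares), with a line joining the arrays of a cell line. Ranbp1, Selenok, Uqcr10 and Eif4e are lower on every irradiated Atm-/- array, Bbc3 is higher after irradiation in all 6 lines, and Junb and Mir155hg slope in opposite directions in Atm-/- and WT lines.

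Of 43 p53 targets tested, 2 rose (0.518% of all genes rose) and 0 fell in Atm-/- lines in limma's fit, with a median of 0.08 (0.13, 0.05 and 0.24 in lines 1 to 3). At an unadjusted p under 0.05, 5 were above and 2 below 0, against 1015 above and 855 below among all 12363 genes. Without line 2, 1 was called higher (0.89% of all genes) and 1 lower (1.21% of all genes). In WT lines 20 of these 43 rose (2% of all genes rose there) with a median of 0.65, and over the mean of the other 6 genotypes 29 rose (6.69%) with a median of 0.63. The list was chosen with such responses known. The Atm-/- difference was below that of the others for 18 of the 43 (2.17% of all genes) and above it for 1, and below that of WT for 7 (1.05%).

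Cdkn1a, which encodes the cell cycle inhibitor p21, had 1865, 326 and 2306 on irradiated Atm-/- arrays, against 1337, 296 and 1756 on untreated ones. Each line was slightly higher after irradiation, with a difference of 0.33 ± 0.18 that was not called (adjusted p = 0.39), against 1.76 in WT lines, and the 2 genotypes differed (adjusted p = 0.0052). Mdm2, the ubiquitin ligase that restrains p53, had 1181, 857 and 1205 on irradiated arrays, against 1315, 869 and 1139 on untreated arrays. Its difference of -0.03 ± 0.19 compares with 1.16 in WT lines (adjusted p = 0.025 for the difference between genotypes). Aen, a nuclease of the apoptotic programme, and Pidd1, a death domain protein, gave 0.06 ± 0.13 and 0.11 ± 0.16, against 1.00 and 1.33 in WT lines. Cdkn1a, Mdm2, Aen and Pidd1 lie outside the rule for named genes and were chosen after their values were seen.

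Bbc3, which encodes the BH3-only apoptosis inducer Puma, was the p53 target called in both genotypes. Its signal was 393, 336 and 517 on irradiated Atm-/- arrays, against 250, 134 and 285 on untreated ones. The groups did not overlap and each line was higher, by 0.62, 1.23 and 0.82, with a difference of 0.89 ± 0.21 (adjusted p = 0.034, and 0.14 without line 2). In WT lines Bbc3 rose by 1.43 (adjusted p = 0.00021) and reached higher signals, with a mean of 1220 ± 44.7 on irradiated WT arrays against 467 ± 199 on untreated ones (SD, n = 3 each). The Atm-/- minus WT difference was not called (adjusted p = 0.39). Bbc3 was called in 9 of 20 other settings, with a range of 0.72 to 1.03. Its promoter is shown because Bbc3 is the p53 target that rose in both genotypes. It spans 250 bases before to 50 after the first of 3 starts listed by RefSeq (chr7:16309333-16309632, plus strand, GRCm38.p6), and capitals mark a stretch that matches the kappa B consensus in 2 overlapping positions.
Bbc3 promoter: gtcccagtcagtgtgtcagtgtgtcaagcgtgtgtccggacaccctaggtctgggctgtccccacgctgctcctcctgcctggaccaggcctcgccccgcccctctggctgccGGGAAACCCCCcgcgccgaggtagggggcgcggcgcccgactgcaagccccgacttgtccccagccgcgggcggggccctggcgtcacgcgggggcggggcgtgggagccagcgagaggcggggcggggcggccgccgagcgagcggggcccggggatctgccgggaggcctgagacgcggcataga
The kappa B consensus was found in 4.35% of 27025 promoters of this length searched on both strands, and the p53 half-site consensus, found in 8.37%, has no match in this window.

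Pltp, a phospholipid transfer protein, was the other p53 list member that rose. It had 692, 410 and 336 on irradiated arrays, against 512, 311 and 166 on untreated arrays. Each line was higher after irradiation and the groups overlapped, with a difference of 0.59 ± 0.13 (adjusted p = 0.027), against 0.10 in WT lines and 0.46 on a second probe set. Fas, the death receptor, differed by 0.94 ± 0.39 without being called (adjusted p = 0.25), and Btg2, an antiproliferative factor, by -0.62 ± 0.21 (adjusted p = 0.13), against 0.82 in WT lines.

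Targets of NF-kB centred on 0 in Atm-/- lines. Of 35 tested, 0 rose and 2 fell in limma's fit (0.809% of all genes fell), Mir155hg and Junb, and the list's median was 0.00 (-0.06, 0.03 and -0.06 in lines 1 to 3). At an unadjusted p under 0.05, 2 were above and 4 below 0, against 1015 above and 855 below among all 12363 genes. Without line 2, 0 were called higher and 1 lower (1.21% of all genes). In WT lines 19 rose (2% of all genes) with a median of 0.92, and over the other 6 genotypes 24 rose (6.69%) with a median of 0.67. The Atm-/- difference was below that of WT for 16 of the 35 (1.05% of all genes) and above it for 0. Nfkbia, the inhibitor of NF-kB that NF-kB itself induces, had 5609, 4952 and 8107 on irradiated arrays, against 7422, 5125 and 7879 on untreated arrays, and differed by -0.14 ± 0.10, against 0.92 in WT lines (adjusted p = 0.00068 for the difference). Cd40, a costimulatory receptor, stayed at 56, 97.8 and 54 on irradiated arrays, against 55.6, 90 and 110 on untreated arrays, whereas WT lines gave a difference of 3.33. Relb, an NF-kB subunit, differed by -1.11 ± 0.42 (adjusted p = 0.19), against 2.91 in WT lines. Nfkbia, Cd40 and Relb also lie outside the rule for named genes and were chosen after their values were seen. Cd69, an early activation antigen, had 2417, 3041 and 1160 on irradiated arrays, against 1337, 2033 and 1093 on untreated ones. All 3 lines were higher, by 0.85, 0.58 and 0.09, and the difference of 0.50 ± 0.27 was not called (adjusted p = 0.39), against 2.26 in WT lines.

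**Figure D4:**
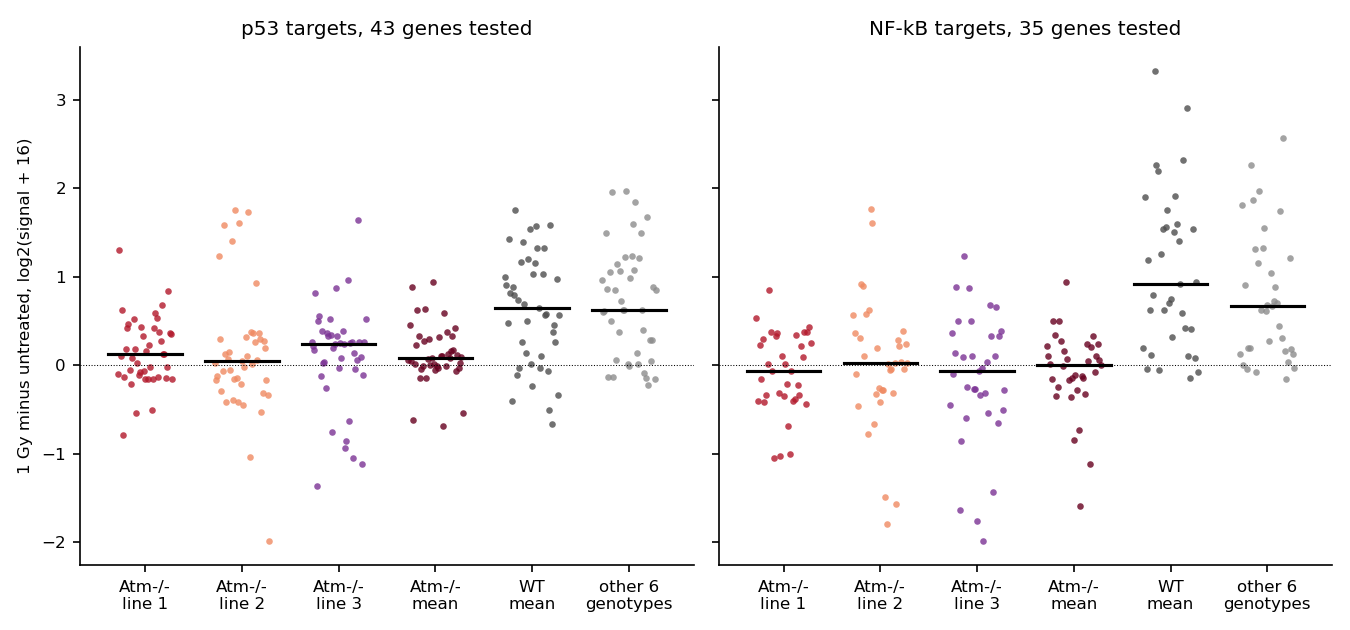
Points are the genes tested of the p53 and NF-kB target lists, and horizontal bars their medians. The y axis gives the difference between 1 Gy and untreated on the log2(signal + 16) scale for each Atm-/- line, their mean, the WT mean and the mean of the other 6 genotypes. The Atm-/- means have medians of 0.08 and 0.00, and the WT means 0.65 and 0.92.

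Junb and Mir155hg had differences of opposite sign in Atm-/- and WT lines, those of Mir155hg at dim signals. Junb, an AP-1 transcription factor, had 212, 224 and 103 on irradiated Atm-/- arrays, against 275, 305 and 387 on untreated ones. The groups did not overlap, line 3 gave -1.76 and the other lines -0.35 and -0.42, and the difference was -0.84 ± 0.21 (adjusted p = 0.045). Junb rose by 0.75 in WT lines (adjusted p = 0.047), and the genotypes differed by -1.59 (adjusted p = 0.0081). Mir155hg, the host transcript of miR-155, had 10.8, 12.2 and 7.92 on irradiated Atm-/- arrays, against 37.7, 81.6 and 78.9 on untreated ones. All 6 values were below 100, in the dimmest group of genes, and with signals below 100 set to 100 the Atm-/- difference of -1.59 ± 0.40 (adjusted p = 0.044, and 0.11 without line 2) became 0. In WT lines Mir155hg rose by 1.60 (adjusted p = 0.023), and 1 of the 3 irradiated WT arrays, at 138, was above 100. The arrays measured the host transcript and not the mature RNA, which is shown for its seed, bases 2 to 8 in capitals (RefSeq, GRCm38.p6, chr16:84714143-84714165, plus strand).
mmu-miR-155-5p: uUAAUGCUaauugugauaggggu

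Over all genes, the difference between the Atm-/- and WT responses was called for 256 genes (2.07%), 126 higher (1.02%) and 130 lower (1.05%) in Atm-/-, and 47 of the 164 changed genes were among them. WT lines had 465 changed genes (3.76%), and 167 of these had a called difference between Atm-/- and WT. Against the mean of the other 6 genotypes 490 differences were called (3.96%), 222 higher and 268 lower, and 123 of the 164 were among them. That mean itself had 1876 changed genes (15.2%). Of the 164, 3 were called in the same direction in WT lines (Narf, Bbc3 and Smc6) and 7 in the opposite direction (Cenpc1, Dctn6, Cat, E2f2, Fbxo22, Mir155hg and Junb). Dctn6, Cat and Fbxo22 lie outside the rule for named genes and were chosen after their values were seen, and other probe sets gave 0.12 for Dctn6, -0.26 for Cat, and -0.18 and 0.29 for Fbxo22, whose call was lost without line 2 (adjusted p = 0.21). Against the mean of the other 6 genotypes, 18 of the 164 were called the same way and 14 the opposite way.

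**Figure D5:**
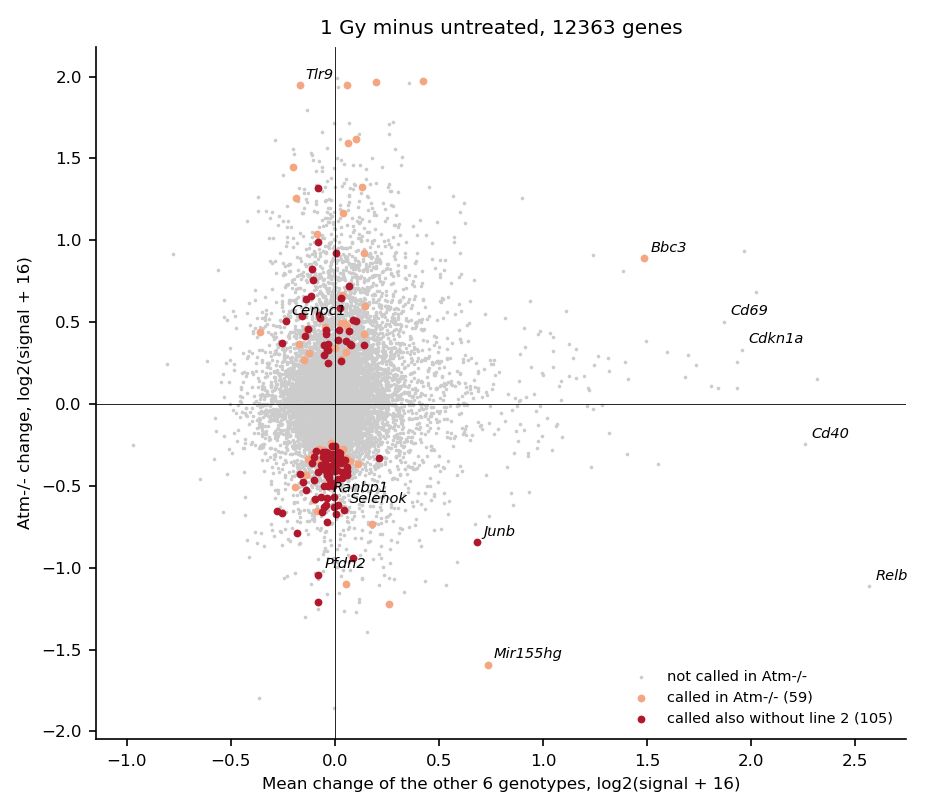
Each point is a gene, placed by the mean difference of the other 6 genotypes (x axis) and the Atm-/- difference (y axis) between 1 Gy and untreated on the log2(signal + 16) scale. Red points are the 105 genes called with and without Atm-/- line 2 and orange points the other 59. Called genes lie mostly near 0 on the x axis, and genes far to the right, such as Cdkn1a, Cd69, Cd40 and Relb, were not called in Atm-/- lines.

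Narf and Smc6 were the 2 genes that fell in both genotypes. Narf had 382, 186 and 208 on irradiated Atm-/- arrays, against 507, 285 and 579 on untreated ones. The groups overlapped, since irradiated line 1 was above untreated line 2, and the difference was -0.79 ± 0.15 (adjusted p = 0.013), against -0.53 in WT lines (adjusted p = 0.050), with -0.82 and -0.29 on other probe sets. Smc6, a subunit of the Smc5/6 complex that acts in chromosome maintenance and recombination, differed by -0.43 ± 0.10 (adjusted p = 0.036), with -0.02, -0.85 and -0.43 in lines 1 to 3, against -0.40 in WT lines. Without line 2 its adjusted p was 0.28, and other probe sets of Smc6 gave -0.25, -0.19, 0.05, 0.21 and 1.03.

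The 2 cell cycle lists held 1 call in Atm-/- lines. Of 35 genes of G2/M and mitosis tested, 0 were called in either direction by limma, with medians of -0.06, -0.22 and 0.15 in lines 1 to 3. At an unadjusted p under 0.05, 0 were above and 5 below 0, against 1015 above and 855 below among all 12363 genes. Without line 2, 0 were called in either direction. The list's median was -0.06 in Atm-/- lines. In WT lines 7 fell (1.76% of all genes fell there) with a median of -0.10. Over the mean of the other 6 genotypes, which rests on 18 lines, 26 fell (8.48%) with a median of -0.19. Plk1, a mitotic kinase, had 2365, 1648 and 2519 on irradiated Atm-/- arrays, against 2455, 2259 and 2553 on untreated arrays. Line 2 moved by -0.45 and the other lines by -0.05 and -0.02, against -0.24 in WT lines and -0.49 over the other 6 genotypes. The Atm-/- difference of Plk1 was not called apart from either (adjusted p = 0.89 against WT and 0.11 against the others in limma). For 4 of the 35 the Atm-/- difference was above that of the other genotypes (1.8% of all genes) and for 0 below. Against WT it was above for 2 (1.02% of all genes) and below for 0. Among 34 G1/S and replication genes, E2f2, a transcription factor of the S phase programme, rose and 0 fell (0.518% of all genes rose). It had 1817, 2034 and 2501 on irradiated arrays, against 1339, 1632 and 1931 on untreated ones, higher in each line with overlapping groups, and differed by 0.37 ± 0.08 (adjusted p = 0.025). E2f2 fell by 0.41 in WT lines (adjusted p = 0.0040) and by 0.26 over the others, and a second probe set gave 0.08 in Atm-/- lines. Without line 2, 1 of the 34 G1/S and replication genes was called higher (0.89% of all genes) and 1 lower (1.21% of all genes). Pik3ip1, an inhibitor of phosphatidylinositol 3-kinase, rose by 0.44 ± 0.10 (adjusted p = 0.028) and fell by 0.36 over the others, with -0.07 on a second probe set; without line 2 its adjusted p was 0.058.

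Other lists held at most 3 called members each, where 0.518% of all genes rose and 0.809% fell. At an unadjusted p under 0.05, nuclear transport had 3 members above and 3 below 0, and the Myc network 1 and 6. In the same order, apoptosis regulators had 5 and 4, ribosome biogenesis 6 and 8, and the interferon response 0 and 2. The unfolded protein response had 3 and 6, and glycolysis and hypoxia 2 and 6. Among all 12363 genes, 1015 were above and 855 below 0. Without line 2, nuclear transport, the Myc network, apoptosis regulators, the interferon response and glycolysis and hypoxia each had 0 called higher and 1 lower. The unfolded protein response had 1 higher and 2 lower, and ribosome biogenesis 0 of either. Over all genes, 0.89% were called higher and 1.21% lower without line 2. Of 34 nuclear transport genes, Nup50, a nucleoporin, and Kpna4, an importin, rose by 0.47 and 0.27, and Ranbp1 fell; other probe sets gave 0.05 and -0.15 for Nup50 and 0.17 for Kpna4. Both rises were lost without line 2, with an adjusted p of 0.082 for Nup50 and 0.17 for Kpna4. Of 22 Myc network genes, Odc1, the first enzyme of polyamine synthesis, rose by 0.48 ± 0.10 (adjusted p = 0.020, and 0.093 without line 2; 0.15 and -0.02 on other probe sets) and Eif4e fell, while Myc itself gave -0.33 ± 0.12 (adjusted p = 0.14), against -0.70 in WT lines. Of 31 apoptosis regulators, Bbc3 rose and Casp8, the initiator caspase of death receptors, fell by 0.43 ± 0.08 (adjusted p = 0.0074), against -0.20 in WT lines. Casp8 had 2178, 2345 and 2765 on irradiated arrays, against 2639, 2781 and 4724 on untreated arrays, which overlap. Single falls were Imp3 among 51 ribosome biogenesis genes, by 0.28 (adjusted p = 0.065 without line 2), the immunoproteasome subunit Psmb9 among 30 interferon-response genes, by 0.41, Pdia3 among 36 genes of the unfolded protein response, by 0.41 (-0.28 on a dim second probe set), and the glycolytic enzyme Tpi1 among 27 glycolysis and hypoxia genes, by 0.33.

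For 24 of the 93 changed genes with another probe set, at least 1 of the others had the same sign and an unadjusted p under 0.05. This held for 27 of the 166 other probe sets, and a gene with more of them had more chances. Over all genes, 15.1% reached that unadjusted p in either direction in limma's fit, 1015 above and 855 below 0. Btf3, Cat, Cotl1, Jpt1, Pnisr, Psmb4 and Smc6 had another probe set of the opposite sign at that unadjusted p. Those with the smallest p gave -0.83 for Pnisr, whose called probe set gave 0.49, and -0.44 for Jpt1. Smc6 had other probe sets of both kinds, with 1.03 on one of opposite sign. The group of 24 was formed after the values were seen. It held 3 rises and 21 falls, 21 of the 24 were called without line 2, and 12 had groups that did not overlap (over all genes, 3.58% did not overlap with irradiated arrays higher and 2.16% with them lower). Besides Selenok, Uqcr10, Cox8a, Eral1, Narf, Fis1, Tpi1, Smc6 and Wdr26, it included the following genes. Gas5, a long noncoding RNA that hosts small nucleolar RNAs, had 11827, 14168 and 17430 on irradiated arrays, against 16730, 17003 and 21227 on untreated arrays, lower in each line with overlapping groups, and fell by 0.35 ± 0.07 (adjusted p = 0.020). Other probe sets of Gas5 gave -0.35, -0.28 and -0.09, and WT lines gave 0.14 (adjusted p = 0.016 for the difference). Tpi1 had 21824, 19836 and 17845 on irradiated arrays, against 30307, 23621 and 21316 on untreated arrays, lower in each line, with -0.32 and -0.01 on other probe sets. Uqcrh, the hinge subunit of complex III, had 11581, 12274 and 13435 on irradiated arrays, against 16546, 14598 and 15752 on untreated ones, without overlap, and fell by 0.33 ± 0.08 (adjusted p = 0.049, and 0.063 without line 2), with -0.21 on a second probe set. Clk4, a kinase of splicing factors, had 774, 1040 and 1038 on irradiated arrays, against 1057, 1465 and 1441 on untreated ones, and its 3 differences of -0.44, -0.49 and -0.47 were nearly equal, with -0.35 on a second probe set. The GTPase Rac1, the SCF ubiquitin ligase subunit Skp1 and the lysosomal protease Ctsz fell by 0.38, 0.38 and 0.53, with other probe sets at -0.20 for Rac1, -0.40 for Skp1, and -0.22 and -0.10 for Ctsz. Tut4, a terminal uridylyltransferase of RNA, rose by 0.37 with 2662, 3480 and 3463 on irradiated arrays, against 2025, 2978 and 2478 on untreated ones, and its 4 other probe sets gave -0.14 to 0.24.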

How the data were processed

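RNA of v-abl pre-B lines was hybridized to 1-colour Affymetrix arrays, 1 per line and treatment. The authors deposited an intensity per probe set, linear and not log-transformed; the submitters' processing notes name MAS5. The mean of every array was 500 after trimming 2% at both ends, as found in the values. Their number, 3 arrays a group, limits the precision. No scan date or other batch was used, since none is given in the sources used here.

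Of 45101 probe sets, 64 were controls. Of the others 34945 had 1 symbol in the platform annotation, 932 several and 9160 none; only the first were named. A probe set was kept if above its array's median on at least 3 arrays (28260), and each gene took its brightest kept probe set (12363 genes, 5984 with more than 1). Values were tested as log2(signal + 16), which understates changes of dim genes. In R 4.3.3, limma 3.58.1 fitted all 42 arrays with cell line as a block and treatment within genotype, with an intensity trend in the variance (14 residual degrees of freedom). P-values are two-sided and Benjamini-Hochberg adjusted over all genes in each comparison, with a threshold of 0.05. Within genotypes, deviations of same-numbered irradiated and untreated arrays correlated at 0.354 to 0.643 in all 21 lines, and those of unlike numbers at -0.442 to -0.0526, so the numbers were taken to pair the arrays. Without the replicate block the Atm-/- response had 1 call.

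Genes were named by a rule: the 15 largest called rises and falls, up to 10 in each direction called without line 2, list members that were called or had the smallest p, the 5 in each direction that differed most from the other genotypes, up to 5 called alike in WT lines, and the targeted genes. The text gives a selection of the genes that the rule names. Other genes lie outside this rule and were chosen after their values were seen. They include Cdkn1a, Mdm2, Aen, Pidd1, Fas, Btg2, Nfkbia, Cd40, Relb, Plk1 and Myc. The members, lists, motifs and alternatives were chosen with earlier results of these data known. Alternatives were other blocks, scalings, pseudocounts, floors, filters, variance models and left-out lines. The fit was tested on simulated data with 1 spread per gene for all genotypes. Such data do not hold the larger spread of the Atm-/- lines, so they cannot show its effect on the calls. The R package data.table (version 1.17.8) read the values. Figures used matplotlib 3.10.9 under Python 3.11.15, with numpy 2.4.6 and pandas 2.3.3. Promoter and miRNA sequences are RefSeq's (GRCm38.p6).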

Additional observations from a re-analysis of the deposited data

Results flagged for a closer look

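For 21 named genes that changed in Atm-/- lines, the response differed from that of the WT lines by the test of the difference itself, each with an adjusted p under 0.05 in limma. The genes were first picked as changed on the same Atm-/- arrays, which enter this test too, so it is not separate evidence of their change. The values are Atm-/- minus WT differences in response on the log2(signal + 16) scale. Above the WT response were Jpt1 by 1.39, Casd1 by 1.14, B3galnt2 by 1.01, Cenpc1 by 0.84, E2f2 by 0.78, Pik3ip1 by 0.74, Prkaca by 0.69, Cbll1 by 0.43 and Kpna4 by 0.35. Below it were Mir155hg at -3.19, Junb at -1.59, 5430405H02Rik at -1.49, Fahd1 at -1.34, Leng8 at -0.95, Brms1 at -0.88, Selenok at -0.68, Cox8a at -0.60, Uqcr10 at -0.54, Ranbp1 at -0.52, Rab21 at -0.49 and Eif4e at -0.45. Without Atm-/- line 2 the difference was no longer called for 5430405H02Rik (adjusted p = 0.056), Fahd1 (0.089), Leng8 (0.11) and Kpna4 (0.11). All 6 Atm-/- values of Mir155hg were below 100, and with signals below 100 set to 100 its difference from WT was -0.16 and was not called (adjusted p = 0.57), so neither the size nor the direction of its Atm-/- change is settled. For Junb, Cenpc1 and E2f2 both genotypes had a called change, in opposite directions. Selenok, Cox8a and Uqcr10 each had another probe set of the same sign with an unadjusted p under 0.05 in Atm-/- lines, while the other probe sets of Jpt1, Brms1, Cbll1, Prkaca, Casd1, Pik3ip1 and Eif4e had the opposite sign.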

How the results depend on the processing

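The count of changed genes in Atm-/- lines (164) lay between 142 and 223 with other pseudocounts, a floor of 100, other scalings, other filters on dim probe sets or line as a random effect. The calls shared with the 164 numbered 104 to 160 in these settings, fewest with the floor (104) and line as a random effect (111). The count was 50 without the variance trend, 358 over every kept probe set, and 86 to 309 when 1 line was left out. It was 1 without the replicate block, 0 without the block and the irradiated array of line 2 (638 at an unadjusted p under 0.05), 0 with the 6 Atm-/- arrays alone (737 unadjusted) and 1 with array weights (831 unadjusted). Added after seeing the data, leaving out Atm-/- line 2 and WT line 4 gave 333, and cyclic loess without line 2 gave 334. The count against WT (256) was 3 without the block, 2 without the block and that array, 98 with line as a random effect, 89 with array weights, 168 with the floor and 33 without the trend. It was 137 to 347 with a replicate number left out, 25 to 596 with a WT line left out (lowest without WT line 3, highest without WT line 4) and 552 with both raised lines left out. The count against the other 6 genotypes (490) was 6, 1, 303 and 52 in the first 4 of these settings, 223 without the trend, 791 over every probe set, 368 to 612 with a number left out and 795 without both raised lines. For named genes 1071 values kept direction and side of the threshold, 557 lost the call, and 6 changed sign: Narf against WT, 0.05 without replicate 3 (range -0.45 to 0.05 over left-out numbers), and Smc6 against WT, 0.18 without replicate 2 (range -0.24 to 0.18), 0.10 without the block and that array, 0.03 with array weights, 0.01 without WT replicate 1 and 0.14 without both raised lines. Why counts moved was not tested. Dim signals limit the rest: 9 of the 164 changed genes lay in the dimmest of 5 groups of genes, with signals whose line medians spread from -0.13 to 0.71.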

Other observations

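Across all 12363 genes, the differences of Atm-/- line 2 and WT line 4 had a Pearson correlation of 0.404, the highest of 54 pairs of an Atm-/- line with a line of another genotype, whose median was 0.00 and lowest value -0.12. The points are genes, which are not independent, and both lines had the raised low signals. Markers of other cells moved with the same array: the 8 myeloid markers tested had a median difference of 1.40 in line 2, against -0.22 in line 1 and 0.20 in line 3, and the 6 stromal markers 1.04 in line 2, against 0.14 and -0.33. None of these markers was called. At an unadjusted p under 0.05, 1 stromal marker was above and 1 below 0, and 0 myeloid markers were either. Among all 12363 genes, 1015 were above and 855 below 0 at that p. Csf1r, a receptor of macrophages, had at most 409 on any Atm-/- array. Their part in any result was not tested.

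Among the lists with 0 called members in either direction in Atm-/- lines, in limma's fit, were double-strand break repair (30 tested), ATR and checkpoint signalling (20), heat shock and chaperones (25), sterol and fatty acid synthesis (25), histones (10), pre-B and B-cell development (35) and the Stat5 list (23). At an unadjusted p under 0.05 they had, in that order, 1, 2, 1, 4, 0, 6 and 1 members above 0 and 1, 1, 1, 2, 1, 7 and 3 below. Lymphocyte homing and activation (20) and the targeted genes (6) also had 0 calls, with 0 and 1 above and 1 and 0 below 0 at that p. Among all 12363 genes, 1015 were above and 855 below 0 at that p. Without line 2, limma called Rad1 of the ATR list lower (adjusted p = 0.013), Stat3 of the Stat5 list lower (adjusted p = 0.020), 1 sterol gene higher, and 1 pre-B and B-cell development gene in each direction. Chek1, the checkpoint kinase downstream of Atr, was higher in each Atm-/- line, with 2288, 2138 and 2304 on irradiated arrays against 1749, 1906 and 1907 on untreated ones. The groups did not overlap and the difference of 0.27 ± 0.10 was not called (adjusted p = 0.15), but it was above the WT response of -0.27 (adjusted p = 0.033). Zap70, a kinase of lymphocyte receptors, had 65.4, 93 and 52.8 on irradiated arrays, against 184, 239 and 549 on untreated arrays, with no overlap and a difference of -1.85 ± 0.56 that was not called (adjusted p = 0.091). Chek1 and Zap70 had 4 and 3 probe sets that passed the signal filter, and the values given are those of the brightest alone.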
